A study of Mus with 6 samples.

Results

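SUMO conjugation machinery genes were followed in activated mouse CD4+ T cells whose secreted VEGF-B had been neutralized. SUMO is a small protein that is attached to lysines of other proteins, much as ubiquitin is, and that alters their partners, location or activity. A modifier of the SUMO family is first activated by the enzyme made of SAE1 and UBA2, is then passed to a conjugating enzyme, and is placed on its target with the help of ligases, among them the PIAS proteins. Proteases of the SENP family, such as SENP2, take it off again. In T cells, SUMO and the PIAS proteins are best known for restraining STAT, NF-κB and nuclear receptor transcription factors. The genes were picked by symbol, for the side of the pathway that opposes Senp2, with no cut on a measured value. Earlier results of these data were known at the time, and the paper reports Senp2 as lowered when VEGF-B was neutralized. The genes are Sumo2, Sumo3, Sae1, Uba2, Pias1, Pias2, Pias3 and Pias4. All 8 were among the 10995 protein-coding genes listed, and all 8 were among the 8816 genes tested, those whose mean over the libraries reached 1 FPKM.

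Wild-type CD4+ naive T cells from the spleen were activated for 3 days with anti-CD3 (5 μg/mL), anti-CD28 (2 μg/mL) and IL-2 (100 U/mL). During activation 1 group received an antibody that neutralizes VEGF-B and the control group received normal goat IgG, both at 1 μg/mL. Each group comprised 3 RNA-Seq libraries. The sources used here do not say whether the libraries came from separate mice or cultures, so that the spread between them may be technical, and the sex and age of the mice are not given. RNA alone was measured, not SUMO conjugates.

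Values were taken as FPKM, a measure of fragments per unit of transcript length and of library size. The depth of the libraries is unknown, so the spread between the 3 libraries of a group is the error given. Of the markers checked, all 6 for CD4+ T cells were listed, with a summed level of 409 to 449.8 FPKM per library. The sum hides unlike changes with anti–VEGF-B. Cd3e was called lower (log2 fold change -0.51, adjusted p = 0.0197 from limma), as were 23.8% of all genes tested. Cd3g was at -0.43 and not called (limma adjusted p = 0.0621). Cd3d, Cd4, Lck and Cd28 were at 0.0041 to 0.12 and not called. Of the 2 CD8 T cell markers, Cd8a was at 0.182 FPKM or less and Cd8b1 at 2.27 to 4.51 FPKM. The 3 myeloid markers listed of 5 (Lyz2, Cd14 and Csf1r) summed to 3.95 to 5.11 FPKM in 5 libraries and to 19.8 FPKM in IgG replicate 3. The 1 natural killer marker listed of 3, Klrk1, was at 0.0943 FPKM or less, and B cell and red cell markers were not analysed here. The median of all log2 fold changes (anti–VEGF-B over IgG) lay at -0.15, with 71.2% of tested genes below 0. Scaling each library to its median moved that median to 0.049, so changes of the SUMO and parallel conjugation genes named are given with their value after such median centring where it alters their direction or call.

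With anti–VEGF-B, both genes of the SUMO-activating enzyme fell, by 32.1% (Sae1) and 27.7% (Uba2) of their mean FPKM, and of the ligases Pias2 fell by 21.6%. The most abundant modifier of the set, Sumo2, and the ligases Pias1, Pias3 and Pias4 differed by -4.92% to -2.83% in mean FPKM, and none of them was called. Sumo3 was lower on average, but its libraries overlapped. Of the 8 genes, 3 had an adjusted p under 0.05 in limma, all of them lower with anti–VEGF-B, where 23.8% of all genes tested were called lower and 4.87% higher. The groups did not overlap for the same 3 genes, against 49.0% of all genes tested, and the median log2 fold change of the 8 genes was -0.19, or 0.011 after median centring. After median centring 1 of the 8 genes, Sae1, was called lower and 0 higher, against 9.15% and 15.5% of all genes. These counts do not set the 8 genes apart as a list, and what follows describes them singly.

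**Figure D1:**
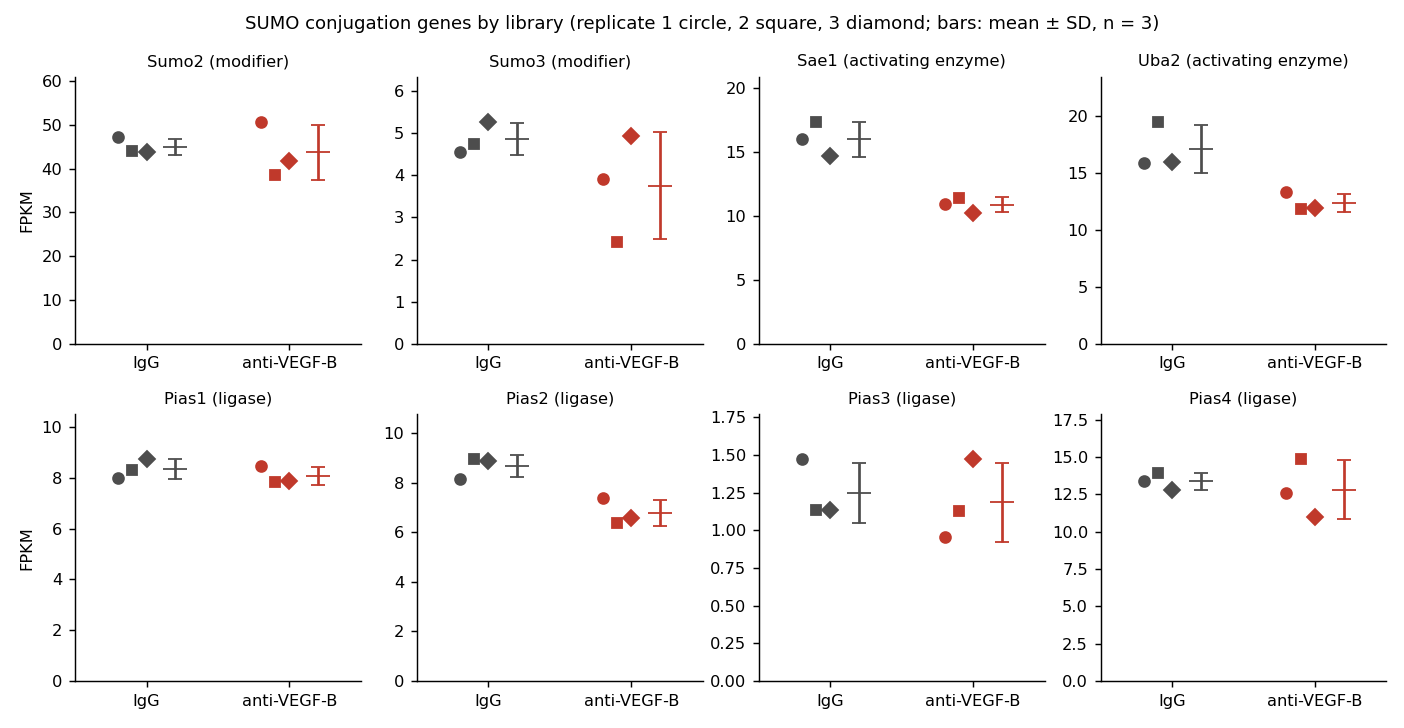
FPKM of each of the 8 genes in the 3 IgG libraries (grey) and the 3 anti–VEGF-B libraries (red), with the mean and SD of each group beside the points and every axis starting at 0. For Sae1, Uba2 and Pias2 all anti–VEGF-B libraries lie below all IgG libraries, and for the other 5 genes the groups overlap.

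The modifiers differed in level more than in response. Sumo2 encodes the modifier that cells hold largely free and attach, often as chains, under stress, and Sumo3 encodes a nearly identical protein. Sumo2 (ENSMUSG00000020738, GRCm38 chromosome 11, 115523102 to 115536276, minus strand) was at 47.2, 44.1 and 43.8 FPKM with IgG and at 50.8, 38.6 and 41.8 FPKM with anti–VEGF-B. The anti–VEGF-B libraries lay on either side of the IgG libraries. The log2 fold change of Sumo2 was -0.049 (95% interval -0.28 to 0.18, adjusted p = 0.735 from limma), and it was 0.15 after median centring. Sumo2 ranked above 92.5% of listed genes by mean FPKM.

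Sumo3 (ENSMUSG00000020265, chromosome 10, 77606097 to 77618331, plus strand) was at 4.56, 4.75 and 5.28 FPKM with IgG and at 3.91, 2.41 and 4.94 FPKM with anti–VEGF-B. Anti–VEGF-B replicate 2 was the lowest of the 6 libraries, and replicate 3 lay within the IgG range. The log2 fold change was -0.34 (95% interval -0.75 to 0.071, adjusted p = 0.181 from limma), and leaving out anti–VEGF-B replicate 2 brought it to -0.12 (limma adjusted p = 0.528). Leaving out anti–VEGF-B replicate 3 moved it the other way, to -0.52 (limma adjusted p = 0.0715), so single libraries set the size of the value. The interval therefore held both no change and a fall larger than that of Sae1. Summed, Sumo2 and Sumo3 were at 49.9 ± 1.62 FPKM with IgG and 47.5 ± 6.88 FPKM with anti–VEGF-B (n = 3 each, SD).

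The ratio of Sumo2 to Sumo3 within a library, which does not depend on how libraries are scaled, was 9.31 ± 1.03 with IgG and 12.5 ± 3.81 with anti–VEGF-B (SD, n = 3 each). These overlapped (two-sided exact permutation test, p = 0.3, where 3 against 3 libraries cannot go below 0.1).

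The activating enzyme is a pair of proteins that work only together: SAE1 helps to adenylate the modifier and UBA2 carries it on its catalytic cysteine. Sae1 (ENSMUSG00000052833, chromosome 7, 16320234 to 16387806, minus strand) was at 16.0, 17.4 and 14.7 FPKM with IgG and at 11.0, 11.4 and 10.2 FPKM with anti–VEGF-B. The lowest IgG library stood well above the highest anti–VEGF-B library, and within each group the libraries lay close together. The log2 fold change was -0.52 (standard error 0.0906, 95% interval -0.72 to -0.31, adjusted p = 0.00758 from limma), and 10.3% of all genes tested had one as low or lower. After median centring it was -0.32 (adjusted p = 0.0221 from limma). Leaving out each library in turn gave -0.58 to -0.46, with an adjusted p of 0.0326 or less from limma.

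Uba2 (ENSMUSG00000052997, chromosome 7, 34140688 to 34169599, minus strand) was at 15.9, 19.5 and 16.0 FPKM with IgG and at 13.3, 11.8 and 12.0 FPKM with anti–VEGF-B. The groups did not overlap, and IgG replicate 2 stood above the other IgG libraries. The log2 fold change was -0.43 (standard error 0.101, 95% interval -0.66 to -0.21, adjusted p = 0.0160 from limma). After median centring it was -0.23 and was not called (limma adjusted p = 0.0670). Leaving out anti–VEGF-B replicate 3 gave -0.41, also not called (limma adjusted p = 0.0586).

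The transcripts of the enzyme pair were at like levels per length in every library. The ratio of Sae1 to Uba2 was 1.01, 0.890 and 0.917 with IgG and 0.823, 0.965 and 0.855 with anti–VEGF-B, with overlapping groups (two-sided exact permutation test, p = 0.4). The log2 ratio differed by -0.092 between the groups. In bulk RNA, fewer cells with these transcripts and less of them per cell cannot be told apart. Mki67, a marker of dividing cells, was lower in the same anti–VEGF-B libraries (7.69 ± 1.64 FPKM with IgG, 2.09 ± 0.172 FPKM with anti–VEGF-B), as was Il2ra, the α chain of the IL-2 receptor (117 ± 28.9 and 58.3 ± 7.01 FPKM, SD, n = 3 each). Of the 4 activation markers these 2 were called (adjusted p = 0.00279 and 0.00665 from limma), while Cd44 and Tfrc were not (0.168 and 0.324), and the markers summed to 232 to 289.9 FPKM with IgG and 196 to 206 FPKM with anti–VEGF-B. Their part in the fall of Sae1 and Uba2 was not tested. Without IgG replicate 3, the library with the highest myeloid markers, the log2 fold change was -0.58 for Sae1 and -0.48 for Uba2. Whether myeloid cells had a part in these values was not tested.

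**Figure D2:**
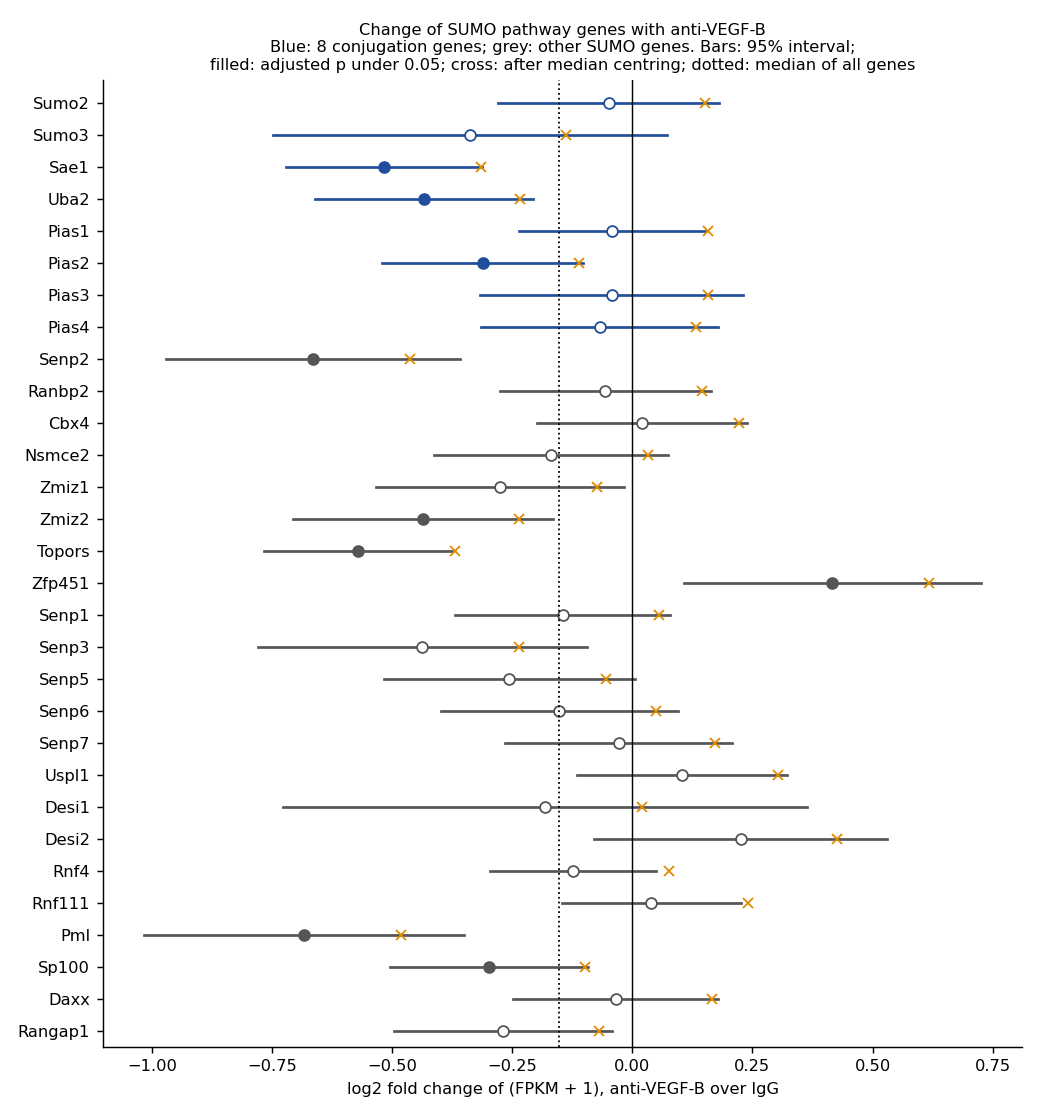
Log2 fold change on the log2(FPKM + 1) scale, anti–VEGF-B over IgG, for the 8 genes (blue), Senp2 and 21 other SUMO genes (grey), with 95% intervals from limma, filled points for an adjusted p under 0.05, crosses for the value after median centring and a dotted line at the median of all genes (-0.15). Sae1, Uba2 and Pias2 are the filled blue points, at -0.52, -0.43 and -0.31, and the crosses of Sumo2, Pias1, Pias3 and Pias4 lie above 0.

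The PIAS proteins were named as inhibitors of activated STATs and act as SUMO ligases for many transcription factors. Pias2 (ENSMUSG00000025423, chromosome 18, 77065208 to 77155708, plus strand), whose protein is also known as Miz1 or PIASx, was at 8.15, 8.96 and 8.86 FPKM with IgG and at 7.39, 6.39 and 6.58 FPKM with anti–VEGF-B. The groups did not overlap, with anti–VEGF-B replicate 1 nearest to the IgG libraries. The log2 fold change was -0.31 (standard error 0.0927, 95% interval -0.52 to -0.10, adjusted p = 0.0352 from limma). After median centring it was -0.11 and was not called (limma adjusted p = 0.355). Leaving out anti–VEGF-B replicate 2 or 3, or IgG replicate 2 or 3, also ended the call, at -0.30 to -0.28 (limma adjusted p = 0.0834 to 0.114).

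Pias1 (ENSMUSG00000032405, chromosome 9, 62878368 to 62987924, minus strand), a ligase known for limiting STAT and NF-κB signalling, was at 7.97, 8.31 and 8.74 FPKM with IgG and at 8.46, 7.85 and 7.88 FPKM with anti–VEGF-B. The libraries were interleaved and the log2 fold change was -0.043 (95% interval -0.24 to 0.15, adjusted p = 0.722 from limma), or 0.16 after median centring. Set against Pias1 in the same library, Pias2 was at a ratio of 1.02, 1.08 and 1.01 with IgG and 0.873, 0.814 and 0.835 with anti–VEGF-B, a ratio chosen after the values were seen and not tested.

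Pias4 (ENSMUSG00000004934, chromosome 10, 81153266 to 81167923, minus strand), which encodes PIASy, was the most abundant of the 4 ligases, at 12.8 to 14.0 FPKM with IgG and 11.0 to 14.9 FPKM with anti–VEGF-B. Anti–VEGF-B replicates 2 and 3 were the highest and the lowest of all 6 libraries, and the log2 fold change was -0.068 (95% interval -0.32 to 0.18, adjusted p = 0.659 from limma). Pias3 (ENSMUSG00000028101, chromosome 3, 96696384 to 96706070, plus strand), whose protein is known as an inhibitor of STAT3, was the least abundant, at 1.13 to 1.47 FPKM with IgG and 0.957 to 1.47 FPKM with anti–VEGF-B. Its log2 fold change was -0.043 (95% interval -0.32 to 0.23, adjusted p = 0.803 from limma), on a scale that understates the change of such a low gene. After median centring these values were 0.13 and 0.16. In RefSeq's GRCm38 annotation, the span of Pias3 overlaps Nudt17, and those of Pias1 and Pias2 each overlap a long noncoding RNA gene, and whether reads were assigned by strand is not given in the sources used here.

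Together the 4 ligase genes were at 31.6 ± 0.693 FPKM with IgG and 28.9 ± 1.75 FPKM with anti–VEGF-B (SD, n = 3 each). Pias4 made up 42.3 ± 1.46% of this sum with IgG and 44.3 ± 4.41% with anti–VEGF-B, and Pias3 made up 3.95 ± 0.701% and 4.15 ± 1.17%. The share of Pias2 was 26.3%, 27.7% and 28.1% with IgG and 25.1%, 21.1% and 24.5% with anti–VEGF-B. This was the only share of the 4 whose groups did not overlap, with a difference of -3.78 percentage points. A two-sided exact permutation test gave p = 0.1, the smallest that 3 against 3 allow, and 0.4 when adjusted over the 4 shares. The share of Pias1 was 26.4 ± 1.15% with IgG and 28.0 ± 1.81% with anti–VEGF-B.

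**Figure D3:**
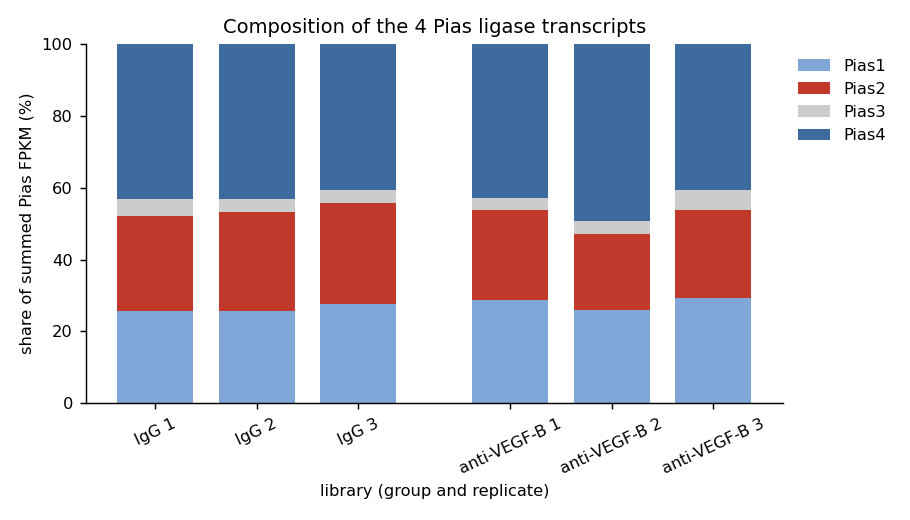
Share of each Pias gene in the summed FPKM of the 4 Pias genes, in percent, as stacked bars for the 3 IgG and 3 anti–VEGF-B libraries. The Pias2 segment (red) spans 26.3% to 28.1% with IgG and 21.1% to 25.1% with anti–VEGF-B, and Pias4 is the largest segment in every library.

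By level per length, the order with IgG was Sumo2, Uba2, Sae1, Pias4, Pias2, Pias1, Sumo3 and Pias3. The ranges of the libraries overlapped between Uba2 and Sae1 and between Pias2 and Pias1, and between no other neighbours. With anti–VEGF-B the order was Sumo2, Pias4, Uba2, Sae1, Pias1, Pias2, Sumo3 and Pias3. There Pias4 overlapped both genes of the activating enzyme, while Uba2 lay above Sae1 and Pias1 above Pias2 with no overlap.

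Senp2, the protease gene on the opposing side, was at 5.43, 8.03 and 6.11 FPKM with IgG and at 3.66, 4.07 and 3.38 FPKM with anti–VEGF-B. The groups did not overlap, and IgG replicate 2 was the highest library. It changed by -0.66 on the log2 scale (standard error 0.135, limma adjusted p = 0.0112), lower than any of the 8 conjugation genes. Each of the 8 genes was set against Senp2 within the same library, so that the scaling between libraries drops out. All 8 ratios were higher on average with anti–VEGF-B, and all 8 share the values of Senp2. As Senp2 fell more than any of the 8 genes, this rise follows from its fall and is no separate result. The paper had already reported Senp2 as lowered in these data when it was taken for the ratios. The ratio of Sumo2 to Senp2 was 7.12 ± 1.61 with IgG and 11.9 ± 2.23 with anti–VEGF-B, that of Pias1 was 1.31 ± 0.240 and 2.19 ± 0.228, and that of Pias2 was 1.36 ± 0.209 and 1.85 ± 0.242 (SD, n = 3 each).

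For Sumo2, Pias1, Pias2 and Pias4 the lowest anti–VEGF-B ratio to Senp2 exceeded the highest IgG ratio, and the groups differed by 1.36-fold (Pias2) to 1.68-fold (Sumo2 and Pias1). The share of all genes tested whose ratio to Senp2 would do the same was not computed. The separation is therefore not known to be particular to these 4 genes. The two-sided exact permutation test gave p = 0.1 for each of these 4, the smallest possible, and 0.25 when adjusted over the 10 ratios tested in all. For the activating enzyme the groups overlapped, as Sae1 fell alongside Senp2. Its ratio to Senp2 was 2.50 ± 0.402 with IgG and 2.94 ± 0.118 with anti–VEGF-B (1.18-fold, exact permutation p = 0.2, SD, n = 3 each), and that of Uba2 was 2.66 ± 0.248 and 3.36 ± 0.395 (1.26-fold, exact permutation p = 0.2). Sumo3 and Pias3 also overlapped, with exact permutation p = 0.5 and 0.2. None of the 10 ratios could pass a threshold of 0.05 with 3 libraries per group.

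**Figure D4:**
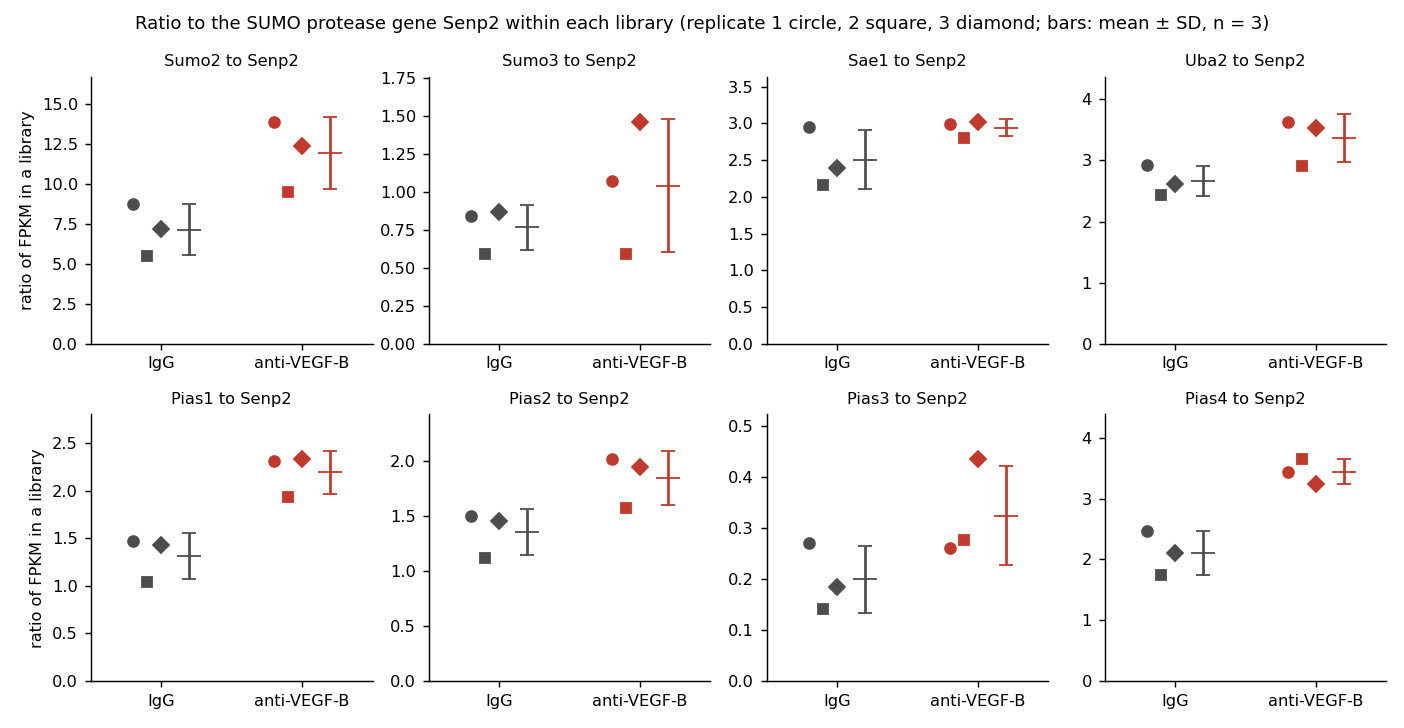
Ratio of the FPKM of each of the 8 genes to that of Senp2 within each library, for IgG (grey) and anti–VEGF-B (red), with the mean and SD of each group beside the points and axes starting at 0. The groups do not overlap for Sumo2, Pias1, Pias2 and Pias4, whereas for Sae1 and Uba2 IgG replicate 1 reaches the anti–VEGF-B libraries.

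The other SUMO genes were taken from a list of 24, of which 23 were listed and tested. Of these 5 (21.7%) were called lower and 1 higher, against 23.8% and 4.87% of all genes tested. Their median log2 fold change was -0.15, the same as that of all genes, and both medians were 0.049 after median centring. These counts do not set the list apart, and its called genes are described singly. Among those called lower were Topors (log2 fold change -0.57, adjusted p = 0.00547 from limma), a ligase for both SUMO and ubiquitin, Zmiz2 (-0.44, adjusted p = 0.0275), a PIAS-like coregulator, and Pml (-0.68, adjusted p = 0.0131) and Sp100 (-0.30, adjusted p = 0.0386), the SUMO-bearing proteins of PML nuclear bodies. Zfp451, whose human counterpart extends SUMO chains, was the gene called higher (0.42, adjusted p = 0.0488 from limma). Topors and Pml were also called after median centring (-0.37 and -0.48, adjusted p = 0.0146 and 0.0227 from limma), whereas Zmiz2 and Sp100 were not (-0.24 and -0.098, adjusted p = 0.106 and 0.350). Leaving out 1 library ended the call of Zmiz2 for anti–VEGF-B replicate 1 or 3 or IgG replicate 2 (limma adjusted p = 0.0772 to 0.0922), and that of Sp100 for every library but IgG replicate 1 (0.0581 to 0.113). That of Zfp451 was lost for every library but anti–VEGF-B replicate 3 (0.0897 to 0.145).

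Topors was at 17.1, 17.8 and 15.5 FPKM with IgG and at 11.6, 11.1 and 10.3 FPKM with anti–VEGF-B. Pml was at 5.06, 6.93 and 4.28 FPKM with IgG and at 3.20, 2.91 and 2.74 FPKM with anti–VEGF-B, and Zfp451 at 2.36, 2.43 and 2.51 FPKM with IgG and at 4.03, 4.17 and 2.70 FPKM with anti–VEGF-B. None of these 3 overlapped between the groups, as was so for 49.0% of all genes tested. Anti–VEGF-B replicate 3 brought Zfp451 close to the IgG libraries. Of the 8 proteases other than Senp2, 0 were called by limma, against 23.8% lower and 4.87% higher of all genes tested. An unadjusted p under 0.05 was found for 1, Senp3 (log2 fold change -0.44, limma adjusted p = 0.0573). Senp3 was called lower when anti–VEGF-B replicate 2 was left out (-0.61, limma adjusted p = 0.0218). After median centring 2 of the 8 were called higher, Desi2 (0.43, limma adjusted p = 0.0360) and Uspl1 (0.30, limma adjusted p = 0.0487), and the median of the 8 turned from -0.15 to 0.052. Of all genes tested, 15.5% were called higher after that centring.

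Genes of parallel conjugation pathways gave a comparison for the activating enzyme. The list held 13 genes for activating enzymes of the ubiquitin, NEDD8, UFM1, ISG15 and autophagy systems and some of their modifiers and conjugating enzymes, of which 11 were tested. Of these 0 were called by limma, against 23.8% lower and 4.87% higher of all genes tested. An unadjusted p under 0.05 was found for 2 (Uba1 and Ufm1), and the median log2 fold change was -0.089. After median centring the median was 0.11, 8 of the 11 genes were above 0, and 2 were called higher, among them Ufc1 (0.34, limma adjusted p = 0.0395). Of all genes tested, 15.5% were then called higher. Uba1, the main ubiquitin-activating enzyme, was at 80.7, 92.1 and 82.0 FPKM with IgG and at 73.6, 79.0 and 65.2 FPKM with anti–VEGF-B (log2 fold change -0.23, adjusted p = 0.0889). The subunits of the NEDD8-activating enzyme, which is built like that of SUMO, had log2 fold changes of -0.23 (Uba3, adjusted p = 0.122) and -0.024 (Nae1, adjusted p = 0.885 from limma), and Nae1 was at 0.18 after median centring. Whether Sae1 and Uba2 differed from these genes was not tested.

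The genes whose values followed Sae1 most closely over the 6 libraries were found by the Euclidean distance of log2(FPKM + 1) values centred on the mean of each gene. They were Tmem101 (distance 0.0627), Ddx21 (0.0768), which encodes a nucleolar RNA helicase, and Gm10053 (0.0773). Ddx21 was at 28.0, 29.9 and 25.9 FPKM with IgG and at 19.4, 19.0 and 17.9 FPKM with anti–VEGF-B. It changed by -0.55 on the log2 scale, against -0.52 for Sae1, a likeness that follows from the choice by distance over the same libraries.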

How the data were processed

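Reads from stranded libraries were aligned by the authors to GRCm38 (hisat2 and StringTie), and expression was derived with Ballgown. The authors deposited 1 table of protein-coding genes with a value per library. Its header names no unit and its values are not whole, so the deposited values were taken as FPKM. How reads shared by similar genes were divided is not given in the sources used here. FPKM hold no depth. Low genes (under 0.3 FPKM) rarely had the same ratio between 2 libraries, at most 2.29% of them to 3 significant digits, so whole reads were not recovered and counting precision is unknown.

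The 6 columns were matched to samples by their labels. Genes whose mean reached 1 FPKM were fitted as log2(FPKM + 1) in limma 3.58.1 (R 4.3.3, empirical Bayes with trend, no covariate, two-sided, Benjamini-Hochberg over all genes tested). Called genes had an adjusted p under 0.05. The limma fit was tested on simulated data, with independent normal values and no shift shared by all genes. The comparisons of ratios and shares were not tested in this way. Ratios and shares were compared with exact permutation tests (scipy 1.17.1). Alternatives were quantile normalization, median centring, another pseudocount, other filters, no moderation, a replicate block and leaving out each library. The members and lists were chosen with earlier results of these data known. Genes named by rule are the 8 members, Senp2, the called genes of both lists, and the 3 genes nearest to the member with the lowest p. Senp3, Desi2, Uspl1, Uba1, Uba3, Nae1, Ufc1, Ufm1 and the markers given were named after their values were seen. Some genes that the rule names are not reported here. No sequences were used here.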

Additional observations from a re-analysis of the deposited data

How the results depend on the processing

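Only the values that changed their direction, their call or a count by over 1.5 times are given here, with adjusted p-values from limma. After median centring, genes called lower fell from 3 to 1 among the 8 members and from 5 to 2 among the other SUMO genes, genes called higher numbered 3 among the latter and 2 among the parallel conjugation genes, and the median of the members became 0.011. Of all genes tested, 9.15% were then called lower and 15.5% higher. Uba2 (-0.23) and Pias2 (-0.11) were no longer called, and Sumo2 (0.15), Pias1 (0.16), Pias3 (0.16) and Pias4 (0.13) turned positive. After quantile normalization Pias2 (-0.14, adjusted p = 0.259) was no longer called, Pias1 (0.12), Pias3 (0.16) and Pias4 (0.061) turned positive, the median of the members was -0.068, and 3 of the other SUMO genes were called lower. With no moderation of the variance, a fit that called 6 genes lower and 6 higher of all 8816, 0 genes of any of the 3 lists were called, and Sae1 (-0.52), Uba2 (-0.43), Pias2 (-0.31) and Senp2 (-0.66) had an adjusted p of 0.0696 to 0.0869. So few calls over all genes leave the counts of 0 uninformative about these lists. With no filter, or a mean of at least 5 FPKM, 0 of the other SUMO genes were called higher. The stricter filter left out Sumo3 and Pias3 of the 8 members. It also left out several genes of the other 2 lists, among them Pml, Zfp451, Uspl1 and Nae1, so its counts come from smaller lists.

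Samples with the same replicate number correlated at -0.030, 0.11 and 0.089 in their deviations from the group means, so the numbers were not taken to pair them. Not every library correlated best with its own number. With the number as a replicate block, Pias2 (-0.31) had an adjusted p of 0.0528, 0 of the other SUMO genes were called higher and 8 lower, among them Senp3 (adjusted p = 0.0219), and 1 parallel conjugation gene, Uba1, was called lower (adjusted p = 0.0445). No other call among the 8 members and Senp2 changed with the block.

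Leaving out each library in turn gave 1 to 3 members called lower (1 without anti–VEGF-B replicate 3), 2 to 7 other SUMO genes lower and 0 to 1 higher, and a median of the members of -0.26 to -0.15. The log2 fold change was -0.16 to 0.034 for Sumo2, -0.48 to -0.34 for Uba2, -0.37 to -0.28 for Pias2, -0.14 to 0.033 for Pias3 and -0.17 to 0.031 for Pias4. The difference in share was -0.46 to 0.65 percentage points for Pias3 and -0.54 to 3.70 for Pias4. The call of Sae1 and of Senp2 was lost only with no moderation, and the pseudocount of 0.1 changed no call among the 8 members and Senp2. Except where named, the causes were not tested.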
